A study of Mus musculus with 2 samples.

Results

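The 10 genes described here mark the myotome and the first skeletal muscle of the embryo, and were chosen by name from knowledge of that lineage: Pax3, Pax7, Myf5, Myod1, Myog, Myf6, Des, Actc1, Lbx1 and Met. All 10 were found, each as 1 feature identified by its Entrez gene number, among 24675 genes with a symbol. Affymetrix Mouse Gene 2.0 ST arrays were used to read their RNA in 2 pieces of tissue from C57Bl/6 mouse embryos at embryonic day 10.5, with no mutation, transgene or treatment named in the labels. The ventral piece was cut by laser microdissection from underneath the dorsal aorta and the dorsal piece from between the aortic roof and the notochord, in the same embryos. How many embryos were used, and whether they were pooled, is not stated in the labels. There was 1 array for each tissue, given in the labels as biological replicate 4, so no value below has an error, a p-value or a replicate check.

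Skeletal muscle of the trunk comes from the dermomyotome, the epithelial upper layer of each somite. Its cells carry the paired-box factors PAX3 and PAX7, and those that move under it to form the myotome switch on the myogenic regulatory factors, a small family of basic helix-loop-helix proteins that bind E-boxes as partners of ubiquitous E proteins. Other cells leave the somite under control of the receptor MET and the homeobox factor LBX1 to populate the limbs. The pieces studied here lie beneath and medial to the somites, in mesenchyme around the aorta and notochord. The genes were read there for RNA of the muscle lineage, though several are also made in other tissues, as given below.

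Values are log2 expression as deposited. The median over all genes was 3.02 in the ventral and 3.15 in the dorsal array, and most genes lay near background. Background is set here by 1365 olfactory and vomeronasal receptor genes, which trunk mesenchyme would not be thought to transcribe: a level under their 95th percentile over both arrays, 3.92, is called background, and their 99th percentile was 5.48. A difference is ventral minus dorsal on the log2 scale, and 1 unit is 2-fold. Where only 1 array was above background, a fold is given as a lower bound, the brighter value against 3.92. A gene was kept for counts of differences if its higher array reached 3.10, the median over genes of the mean of both arrays, which left 13982 genes. Those counts use the measured difference, also where 1 array is at background, and such a gene can then be counted past a fold that its bound does not reach. For orientation, Pax9, a sclerotome factor, was at 4.02 in ventral and 6.15 in dorsal tissue. Cnn1, the calponin of smooth muscle, was at 6.81 in ventral and 2.85 in dorsal tissue. These genes had the largest differences of their lists, and some others of those lists went the other way, so they do not check the cuts.

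The bases just before the transcription start are shown for 3 of the genes, because these 3 bear on the contrast described below: Myog, with a lower value in ventral tissue, and the contractile and cytoskeletal genes Des and Actc1, with higher values there. Each run is the 250 bases before the RefSeq start on the gene's own strand, in the GRCm38.p6 build, at chr1:134289754-134290003 on the plus strand for Myog, chr1:75360042-75360291 on the plus strand for Des and chr2:114052876-114053125 on the minus strand for Actc1. Capitals mark E-boxes, spelled CANNTG, in Myog and Des, and the CArG box, the element bound by serum response factor, in Actc1.
Myog: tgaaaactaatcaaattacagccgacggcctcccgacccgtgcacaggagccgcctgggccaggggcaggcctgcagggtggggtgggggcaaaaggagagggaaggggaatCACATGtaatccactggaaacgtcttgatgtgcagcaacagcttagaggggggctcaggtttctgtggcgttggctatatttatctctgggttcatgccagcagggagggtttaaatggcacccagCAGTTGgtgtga
Des: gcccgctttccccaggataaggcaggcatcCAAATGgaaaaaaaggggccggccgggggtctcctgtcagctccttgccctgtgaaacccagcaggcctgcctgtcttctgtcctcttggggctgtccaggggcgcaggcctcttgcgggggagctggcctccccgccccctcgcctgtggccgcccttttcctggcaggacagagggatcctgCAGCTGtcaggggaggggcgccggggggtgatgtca
Actc1: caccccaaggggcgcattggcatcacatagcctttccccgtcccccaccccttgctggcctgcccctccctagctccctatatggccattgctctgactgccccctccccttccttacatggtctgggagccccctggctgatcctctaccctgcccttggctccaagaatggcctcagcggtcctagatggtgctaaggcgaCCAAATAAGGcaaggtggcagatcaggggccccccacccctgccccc

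The Myog window held 2 E-boxes, CACATG and CAGTTG, whose first bases lie 138 and 12 bases before the start. The Des window also held 2, CAAATG at 220 and CAGCTG at 36 bases before the start, and the second spelling was present in 13.0% of all 32851 promoter windows of the same length. The Actc1 window held no E-box and 1 CArG box, 47 bases before the start, an element present in 1.47% of windows. Among the other members, RefSeq windows of Met, Myf5 and Pax7 were searched, and Met held 1 E-box, CACGTG, while those of Myf5 and Pax7 held none. Pax3, Myod1, Myf6 and Lbx1 were not searched. E-boxes were present in 66.2% of all windows. The MEF2 consensus was searched as YTAWWWWTAR, where Y is C or T, W is A or T and R is A or G. It was present in 2.92% of windows and had no match in the same 6 genes. The Myog window holds CTATATTTAT, which misses this spelling at its last base alone, so the search does not show that a MEF2 site is absent. Motifs were searched on both strands, CAGCTG is itself a form of CANNTG, and a match of letters is not evidence of binding.

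Across the 10 genes, 3 were above background in ventral tissue, Myod1, Des and Actc1, against 23.8% of all genes on that array. In dorsal tissue 5 were above it, Pax7, Myf5, Myod1, Myog and Actc1, against 24.2% of all genes. The other 4, Pax3, Myf6, Lbx1 and Met, were at background on both arrays, as were 71.2% of all genes. Only Actc1 was above the 99th percentile of the receptor genes, on both arrays. In tissue pieces, fewer cells of a type and less RNA in each cell cannot be told apart.

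**Figure D1:**
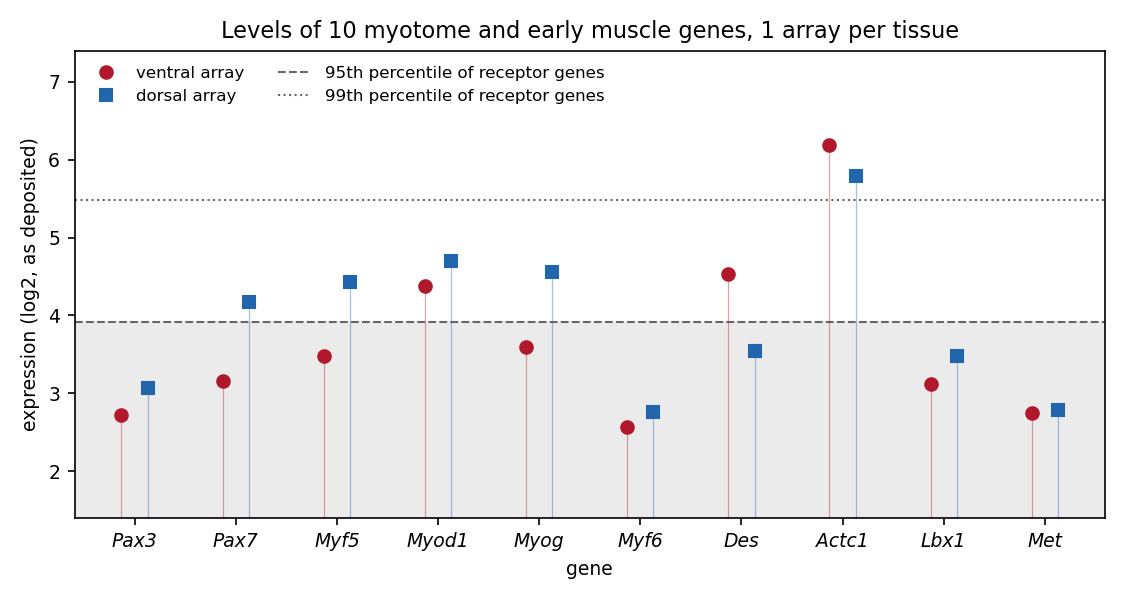
Log2 expression of each of the 10 genes in the ventral array (circles) and the dorsal array (squares), 1 array per tissue. The shaded area is background, up to 3.92, and the dotted line marks 5.48. Pax7, Myf5 and Myog are above background in dorsal tissue alone, Des in ventral tissue alone, and Myod1 and Actc1 in both.

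The paired-box factors stand at the head of the lineage. Pax7 (Entrez gene 18509), a regulator of muscle progenitors and of the dorsal neural tube, was at 3.15 in ventral and 4.18 in dorsal tissue. The dorsal value lies a little above background and the ventral value under it. Its difference of -1.03 is at least 1.20-fold as a bound. Pax3 (18505), which acts upstream in the dermomyotome and is also made in neural crest, was at 2.72 in ventral and 3.07 in dorsal tissue. Both values are at background, so no difference was detectable in Pax3 at this signal.

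The 4 myogenic regulatory factors commit cells to muscle, and 3 of them gave signal. Myf5 (17877), the first of the family to appear in the somite, was at 3.48 in ventral and 4.43 in dorsal tissue. Its difference was -0.95, or at least 1.43-fold lower in ventral tissue. Myog (17928), which encodes myogenin and drives differentiation of committed myoblasts, was at 3.59 in ventral and 4.56 in dorsal tissue. Its difference was -0.97, at least 1.56-fold lower in ventral tissue, where it was at background as Myf5 was. Myod1 (17927), the other early determination factor, was at 4.38 in ventral and 4.70 in dorsal tissue, both above background. It was 1.26-fold lower in ventral tissue. Its difference of -0.33 is set beside a median of -0.12 over all kept genes, of which 31.8% had a lower difference. After median centring it was -0.21. Myf6 (17878), which encodes MRF4, was at 2.57 in ventral and 2.76 in dorsal tissue, at background on both. Myf5 and Myf6 are next to each other among the protein-coding genes of chromosome 10 in RefSeq, and of this pair only Myf5 gave signal, in dorsal tissue.

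Des and Actc1 encode structural proteins of muscle cells and had the opposite direction. Des (13346), the intermediate filament desmin of skeletal, cardiac and smooth muscle, was at 4.54 in ventral and 3.55 in dorsal tissue. Its difference was 0.99. Since the dorsal value is at background, the ventral level exceeded it by at least 1.53-fold. Actc1 (11464), the cardiac alpha actin that embryonic skeletal muscle also makes, was at 6.19 in ventral and 5.79 in dorsal tissue. It was well above background on both arrays, and the ventral value was 1.32-fold higher, a difference of 0.40. The alpha actins have very similar coding sequences, so a probe for Actc1 may also read its relatives and the value is uncertain.

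The genes of the migrating limb precursors were at background. Lbx1 (16814), which these cells need to move laterally and which also marks dorsal spinal neurons, was at 3.12 in ventral and 3.48 in dorsal tissue. Met (17295), the receptor of hepatocyte growth factor, was at 2.74 in ventral and 2.78 in dorsal tissue. Neither gene could show a difference at this signal.

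Of the 10 genes, 7 were kept for counting, and Pax3, Myf6 and Met were not. By measured difference Pax7 was the only one of the 7 counted at 2-fold, with a ventral value at background and a bound of 1.20-fold. It was lower in ventral tissue, where 4.88% of the 13982 kept genes were lower and 9.44% higher by as much. Counted the same way at 1.5-fold were Pax7, Myf5 and Myog, lower in ventral tissue, and Des, higher, 3 and 1 of 7, against 15.0% and 16.3% of kept genes. Each of these 4 also reached the floor of 3.10 on its lower array. Among the 7101 genes whose higher array exceeded background, 8.46% were at least 2-fold lower in ventral tissue and 17.7% higher by as much. In any amount, 8 of the 10 genes were lower in ventral tissue, as were 63.3% of all genes. The median difference was -0.36 over the 7 kept members and -0.12 over all kept genes. Since 1 gene is already a large share of 7, nothing about the genes as a set is read from these counts.

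**Figure D2:**
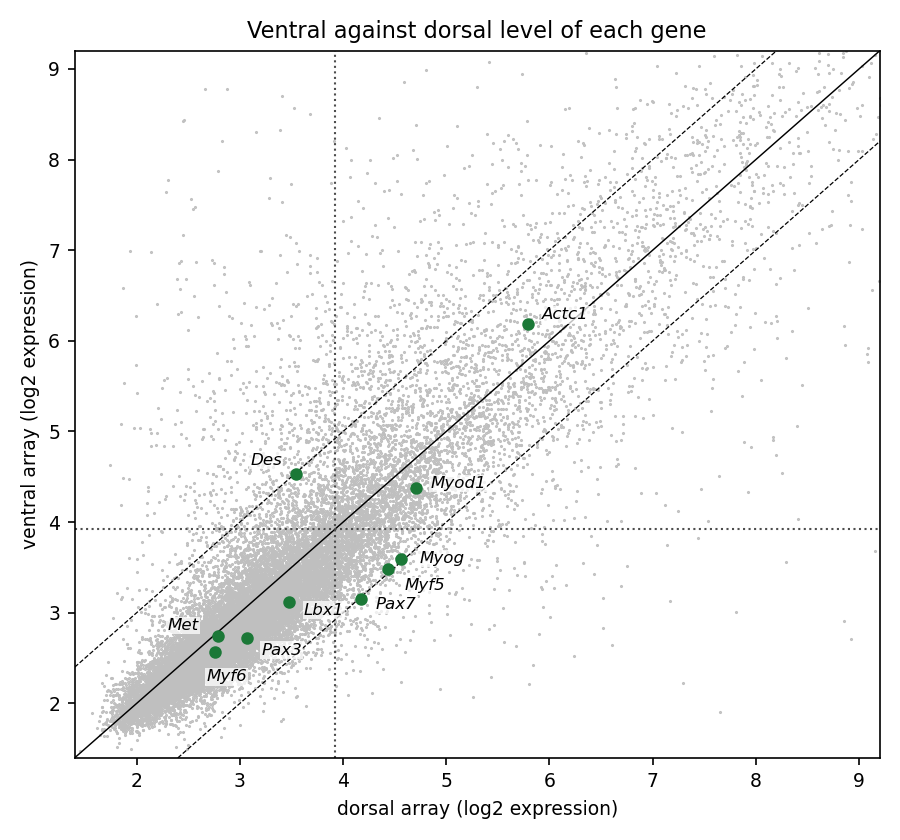
Ventral against dorsal log2 level of each gene (grey points, with 247 genes beyond the axes not drawn) and of the 10 members (green). The solid line marks equal levels, dashed lines 2-fold, and dotted lines background at 3.92. Pax7, Myf5 and Myog lie together near the lower 2-fold line and Des on the upper one, while Actc1 and Myod1 lie near equality.

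Rescaling the arrays moved Pax7, Myog and Des across the 2-fold line without changing their sign. Pax7 was under 2-fold after each of the 3 rescalings, Myog reached 2-fold after quantile normalization, and Des after both centrings. Over the values as deposited, quantile normalization, centring on the median of kept genes and centring by a loess on level, the difference of Pax7 ran from -1.03 to -0.89 and that of Myog from -1.001 to -0.85. That of Myf5 ran from -0.96 to -0.83 and that of Des from 0.98 to 1.11. Met alone changed sign, from -0.04 as deposited to 0.08 after quantile normalization and after centring. Actc1 went down to 0.11 after quantile normalization.

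**Figure D3:**
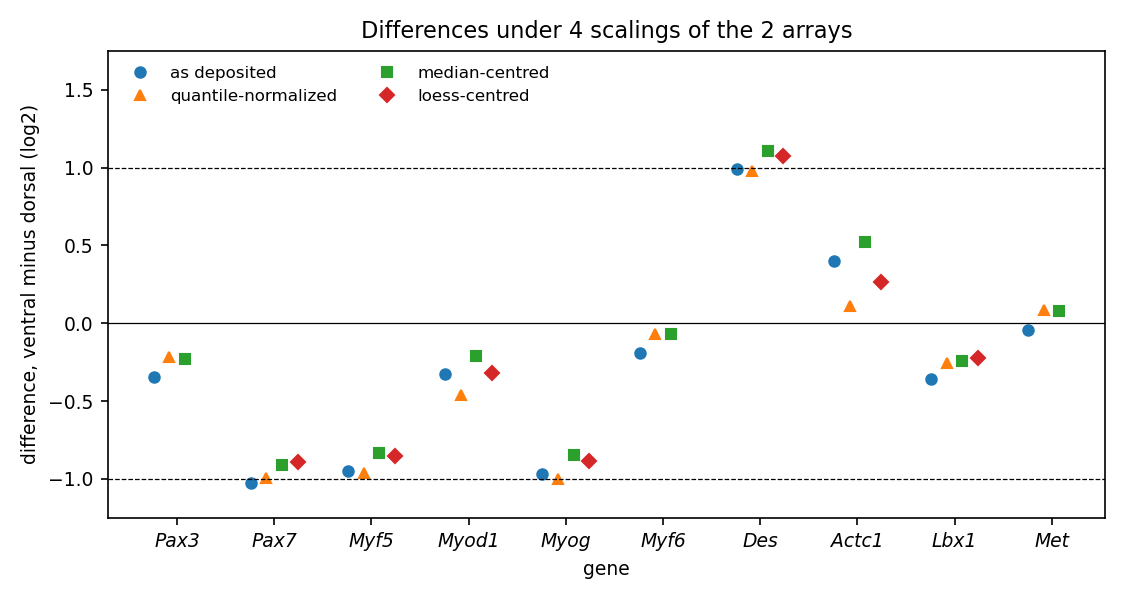
Difference, ventral minus dorsal, of each gene on the log2 scale under 4 scalings of the same 2 arrays; dashed lines mark 2-fold. Pax7, Myf5 and Myog stay between -1.03 and -0.83, and Des between 0.98 and 1.11. No loess value is drawn for Pax3, Myf6 and Met, which were under the floor.

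A list of 8 markers of skeletal muscle was read: Myf5, Myod1, Myog, Myf6, Myh3, Acta1, Chrna1 and Mymk. Myf5, Myod1, Myog and Myf6 are themselves members of the set, so only the others are separate from it. Of the 8, 1 was above background in ventral tissue, Myod1, and 3 in dorsal tissue, Myf5, Myod1 and Myog, against 23.8% and 24.2% of all genes. Those with signal were thus all members of the set. The markers of formed fibres were all at background. Myh3, embryonic myosin heavy chain, was at 2.34 in ventral and 3.003 in dorsal tissue, and Acta1, skeletal alpha actin, at 3.47 ventrally and 3.83 dorsally. Chrna1, a subunit of the acetylcholine receptor, was at 2.99 in ventral and 2.82 in dorsal tissue, and Mymk, the fusion protein myomaker, at 2.91 ventrally and 2.70 dorsally. Among these 8, those above background were regulators of the lineage in both tissues.

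Of 11 other regulators of the dermomyotome, none exceeded background in ventral tissue and 3 did in dorsal tissue, against 23.8% and 24.2% of all genes, and the other 8 were at background on both arrays, as were 71.2% of all genes. Msc, which encodes the repressor musculin, was at 3.37 in ventral and 4.42 in dorsal tissue, at least 1.41-fold lower in ventral tissue. Meox1, a homeobox factor of the somite, was at 3.06 in ventral and 4.05 in dorsal tissue, at least 1.10-fold lower, and Eya1, a coactivator and phosphatase, at 3.59 ventrally and 4.06 dorsally. By measured difference Msc, with its ventral value at background, was the only one of 9 kept genes counted at 2-fold, against 4.88% of kept genes in that direction, and it was short of it after either centring. The median of the 9 was -0.49 against -0.12 over all kept genes.

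Partners and inhibitors of the myogenic factors were widely detected. Above background in each array were 12 of 15, against 23.8% of all genes in ventral and 24.2% in dorsal tissue. Id3, an inhibitor that sequesters E proteins, was at 5.95 in ventral and 8.87 in dorsal tissue, 7.55-fold lower in ventral tissue. Id1 and Id2, of the same family, went the other way, with signal on both arrays. Id1 had a 1.71-fold higher value in ventral tissue, 4.78 against 4.01 in dorsal tissue. Id2 had a 1.60-fold higher value there, 7.42 against 6.75 in dorsal tissue. Among the E proteins, which pair with the myogenic factors, Tcf4 and Tcf3 were lower in ventral tissue, and Tcf12 was near the median of kept genes. Tcf4 was 4.09-fold lower in ventral tissue, at 4.62 against 6.65 in dorsal tissue, and Tcf3, named after its value was seen to complete the count, 2.27-fold lower, at 4.26 against 5.45 in dorsal tissue. Tcf12 was 1.13-fold lower, at 7.19 against 7.37 in dorsal tissue. Its difference, -0.18, lay near the median over all kept genes, -0.12. It was -0.06 after median centring and -0.47 after quantile normalization. Mef2c, a MADS-box cofactor of myogenin that heart and endothelium also make, was at 5.03 in ventral and 3.16 in dorsal tissue, so the ventral level was higher by at least 2.16-fold. Hes1, a Notch target that restrains differentiation, had a 2.71-fold higher value in ventral tissue, 5.62 against 4.18 in dorsal tissue. Twist1, a mesenchymal repressor of MYOD activity, was at 7.03 in ventral and 8.001 in dorsal tissue, 1.96-fold lower. Of the 15, all kept, 2 were higher and 3 lower in ventral tissue by at least 2-fold, against 9.44% and 4.88% of kept genes, and their median difference was -0.18. The number lower was 4 after quantile normalization and after the loess, where Twist1 was at -1.28 and -1.21. Mef2c and Myog thus had opposite directions on this pair of arrays.

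For Met, the ligand and adaptors of its pathway were examined. Hgf, its ligand, was at background on both arrays, at 2.88 in ventral and 2.56 in dorsal tissue, and so was Gab1, the docking protein that migrating precursors need, at 3.32 ventrally and 3.29 dorsally. Of 11 genes, 6 were above background in ventral and 3 in dorsal tissue, against 23.8% and 24.2% of all genes. None of 8 kept was at least 2-fold apart, against 9.44% of kept genes higher and 4.88% lower in ventral tissue. Of those with signal, Grb2, Ptpn11 and Cbl act downstream of many receptors. Grb2 had a 1.90-fold higher value in ventral tissue, 5.50 against 4.58 in dorsal tissue, and Ptpn11, the phosphatase SHP2, 1.81-fold, at 5.04 against 4.19 in dorsal tissue. Cbl, a ubiquitin ligase for activated receptors, was at 4.29 in ventral and 3.38 in dorsal tissue, at least 1.30-fold higher. Spint2, an inhibitor of the proteases that activate the ligand, was at 5.07 ventrally and 4.85 dorsally, and Cxcr4, a chemokine receptor of the migrating cells and of endothelium, at 4.17 ventrally and 3.89 dorsally. The median of the 8 kept genes was 0.25.

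Of 26 sarcomere genes, 20 were at background on both arrays, against 71.2% of all genes, with Ttn, the giant spring protein titin, among them at 2.73 in ventral and 3.04 in dorsal tissue. Tpm1, a tropomyosin made by most cells, had a 1.33-fold higher value in ventral tissue, 8.29 against 7.88 in dorsal tissue. Tpm2, beta tropomyosin of skeletal and smooth muscle, had a 2.59-fold higher value in ventral tissue, 5.66 against 4.29 in dorsal tissue. Tnnt3, the troponin T of fast fibres, was at 6.47 in ventral and 3.31 in dorsal tissue, so the ventral level was higher by at least 5.88-fold. The other troponins of the list with signal, 3 in number, were lower in ventral tissue, all within 2-fold. Tnnc2, fast troponin C, was at 4.29 in ventral and 4.72 in dorsal tissue, Tnnt2, cardiac troponin T, at 3.30 ventrally and 3.96 dorsally, and Tnnc1, slow and cardiac troponin C, at 3.86 ventrally and 4.16 dorsally. Tpm2 and Tnnt3 were the 2 of 14 kept genes with a ventral level at least 2-fold the dorsal one, none was lower by as much, against 9.44% and 4.88% of kept genes, and the median of the 14 was -0.22. Of 19 genes for the muscle membrane, its synapse and fusion, all were at background on both arrays, against 71.2% of all genes. Their medians were 2.94 in ventral and 3.15 in dorsal tissue. They include Cdh15, the cadherin of myoblasts, at 2.86 in ventral and 3.06 in dorsal tissue, Chrng at 3.34 ventrally and 3.58 dorsally, Mymx at 3.33 ventrally and 3.48 dorsally, and Ncam1 at 3.86 ventrally and 3.21 dorsally. None of the 10 kept was at least 2-fold apart, against 9.44% of kept genes higher and 4.88% lower in ventral tissue.

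**Figure D4:**
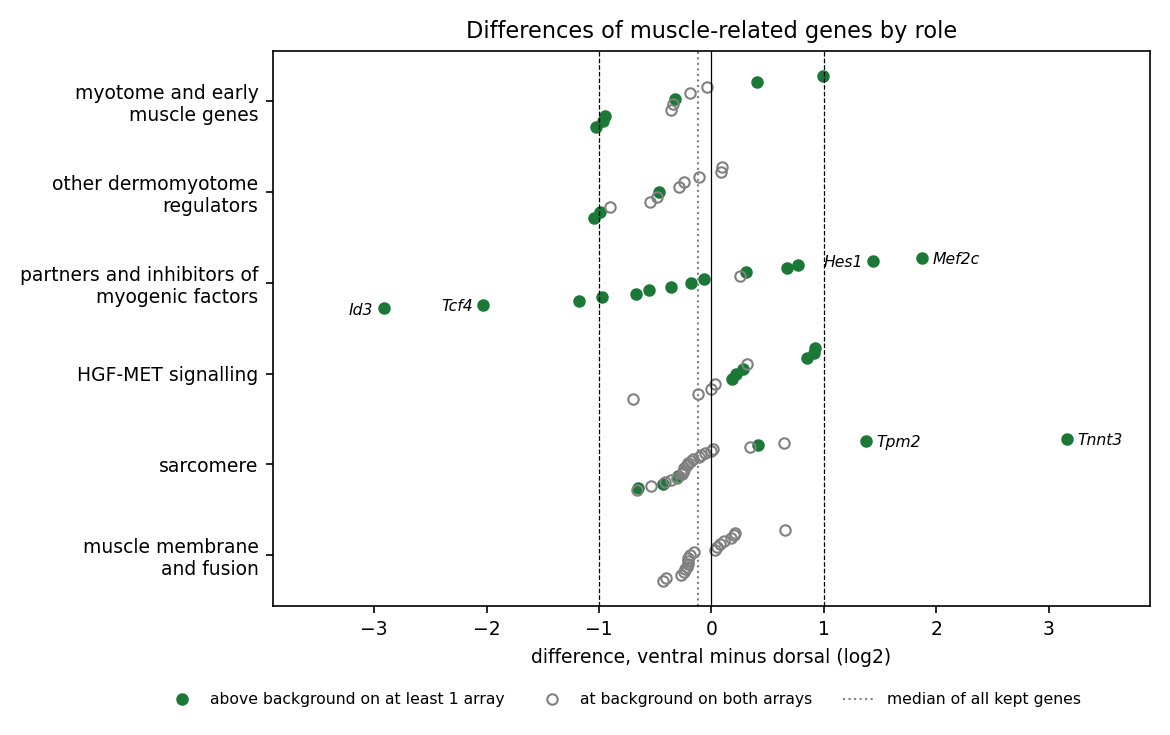
Difference, ventral minus dorsal, on the log2 scale for each measured gene, grouped by role, with 1 point per gene. Filled points are above background on at least 1 array, dashed lines mark 2-fold and the dotted line the median of all kept genes, -0.12. Pax7, Myf5, Myog, Msc and Meox1 lie near -1, Tnnt3 and Tpm2 lie above 1, and all points of the membrane and fusion row are open.

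Des and Actc1 are also made by smooth and heart muscle, and markers of these were read on the same arrays. Among the actins, Acta2, smooth muscle alpha actin, had a 2.23-fold higher value in ventral tissue, 6.31 against 5.15 in dorsal tissue, and Actg2, the enteric gamma actin, 3.75-fold, at 6.06 against 4.15 in dorsal tissue. Acta2 was under 2-fold, at 0.87, after quantile normalization. Actb, the beta actin of all cells, was 2.44-fold lower in ventral tissue, at 7.60 against 8.89 in dorsal tissue. Of 10 smooth muscle genes, 4 were above background in ventral and 3 in dorsal tissue, against 23.8% and 24.2% of all genes. The linear levels of the list summed to 324 in ventral and 142 in dorsal tissue. Cnn1, Acta2 and Actg2 had the highest ventral values of the list. By measured difference 4 of the 10 were higher and 6 lower in ventral tissue, and the median was 0.058 over the 8 kept and -0.096 over all 10. Cnn1 exceeded its dorsal level by at least 7.44-fold, and Synpo2, an actin-bundling protein, was lower in ventral tissue by at least 1.29-fold, at 2.89 against 4.29 in dorsal tissue. Of 16 heart genes, 5 were above background in each array, near the shares of all genes, 23.8% in ventral and 24.2% in dorsal tissue. The linear levels of the list summed to 272 in ventral and 263 in dorsal tissue. Tnni3, cardiac troponin I, was at 6.25 in ventral and 5.91 in dorsal tissue, Myl7, an atrial myosin light chain, at 3.97 ventrally and 4.73 dorsally, and Nkx2-5, a heart homeobox factor, at 3.62 ventrally and 4.37 dorsally. Hand1 was at 5.47 in ventral and 5.13 in dorsal tissue, Hand2 at 4.82 ventrally and 4.83 dorsally, and Gata4 at 4.51 ventrally and 3.89 dorsally, and all of these factors act in other mesenchyme too. Vim, the vimentin filament that pairs with desmin in young muscle cells, had a 1.37-fold higher value in ventral tissue, 9.41 against 8.95 in dorsal tissue. Cryab, a chaperone of desmin, was at 3.97 in ventral and 2.91 in dorsal tissue, Nes, the nestin filament, at 3.27 ventrally and 2.92 dorsally, and Plec, which anchors filaments, at 3.49 ventrally and 3.60 dorsally. The part of smooth or heart muscle cells in the values of Des and Actc1 was not tested.

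Pax3, Pax7 and Lbx1 also mark the dorsal neural tube and neural crest. Of 14 genes of those tissues, 4 were above background in ventral and 3 in dorsal tissue, near the shares of all genes, 23.8% and 24.2%. The linear levels of the list summed to 170 in ventral and 179 in dorsal tissue. Zic2 was at 4.85 in ventral and 5.03 in dorsal tissue, Lmx1b at 4.52 ventrally and 4.69 dorsally, and Msx1 at 4.74 ventrally and 4.61 dorsally. Tfap2b, a crest and kidney factor, was at 4.13 in ventral and 3.02 in dorsal tissue, so the ventral level was higher by at least 1.16-fold. By measured difference it was the only 1 of 8 kept counted at 2-fold, against 9.44% of kept genes in that direction. Its dorsal value was at background. The defining crest factors Sox10, at 2.97 in ventral and 3.22 in dorsal tissue, and Foxd3, at 3.65 ventrally and 3.84 dorsally, were at background on both arrays.

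Sclerotome, the lower part of the somite, was read beside the myotome. Of 9 sclerotome and tendon genes, 4 were above background in each array, against 23.8% of all genes in ventral and 24.2% in dorsal tissue. The linear levels of the list summed to 176 in ventral and 273 in dorsal tissue. Pax9 was 4.35-fold lower in ventral tissue and Uncx at least 1.34-fold lower, at 2.999 against 4.35 in dorsal tissue. Foxc2 was 1.77-fold lower, at 5.20 against 6.02 in dorsal tissue, and Sox9, the cartilage factor, was at 5.75 ventrally and 5.89 dorsally. Tbx18, also a gene of urogenital mesenchyme, was at 4.62 in ventral and 3.74 in dorsal tissue, at least 1.62-fold higher. Pax7, Myf5 and Myog thus had the same direction as Pax9, Uncx and Foxc2, and the part of somite tissue in the dorsal values was not tested. Of 5 epithelial genes, Krt8 was at 5.09 in ventral and 5.14 in dorsal tissue and Krt18 at 5.17 ventrally and 4.27 dorsally, while Cdh1, at 2.90 ventrally and 3.09 dorsally, was at background on both arrays, as Met was.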

How the data were processed

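RNA from laser-microdissected tissue was amplified from 200 to 1000 pg, per the labels' protocols, a step that can drop some transcripts and inflate others. The deposited log2 values, 1 per gene and array, were made with Affymetrix Expression Console and RMA, per the submitters' processing notes; their versions, the build, the probe annotation and which arrays were normalized jointly are not stated there. No detection call was used. Of 25429 features, 24675 had exactly 1 symbol in the platform annotation, and the other 754 were left out. Tissues were taken from the array titles. With 1 array per tissue no test was possible, and differences were described by size. The members and gene lists were chosen with earlier results of these data known. The lists named 156 genes, of which 152 were measured and 4 were not analysed here. Named genes were all members, 13 genes of interest, and from each list up to 4 kept genes with the largest differences among those above background and 3 with the highest mean level. Some others were named after their values were seen, to complete a marker list, a family or a small count: Myh3, Mymk, Tcf3, Id1, Id2, Tnnc1, Sox10 and Foxd3. The steps were tested on simulated data. Promoter sequences are from RefSeq, GRCm38.p6, matched by symbol for 6 of the 10 genes. Python 3.11.15, numpy 2.4.6, pandas 2.3.3, statsmodels 0.14.6 and matplotlib 3.10.9 were used.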

Additional observations from a re-analysis of the deposited data

How the results depend on the processing

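No paired analysis was possible because the tissues share 1 replicate number, 4, with 1 array each, and leaving out a replicate was impossible for the same reason. The 3 scalings gave 27 differences of the members. Of these, 19 kept their direction and their side of 2-fold. Pax7 fell short of 2-fold under all of them, Myog reached it after quantile normalization, Des after both centrings, and Met changed sign under quantile normalization and median centring. No loess value was computed for the 3 members under the floor. Members with a ventral level at least 2-fold the dorsal one, 0 as deposited, numbered 1 after either centring and 1 at 1.5-fold. Those at least 2-fold lower, 1 as deposited, numbered 0 after either centring, 3 at 1.5-fold and 0 at 3-fold. At the 90th percentile of the receptor genes, 3.39, 5 members were above background in ventral and 7 in dorsal tissue. At that cut Myf5 and Myog were above it on both arrays, as was Des, and Lbx1 was above it in dorsal tissue. At the 99th percentile it was 1 member in ventral and 1 in dorsal tissue. The shares of all genes above these other cuts were not counted, so nothing about the members is read from these counts. With the floor at the 95th percentile the median difference was -0.64 for the members, -0.99 for dermomyotome regulators, 0.56 for HGF-MET genes and 0.056 for sarcomere genes. The last of these was negative as deposited, and the floor leaves fewer genes. Dermomyotome regulators at least 2-fold lower numbered 0 after either centring, and HGF-MET genes at least 2-fold higher numbered 2 after median centring and 1 after the loess. The median of partners and inhibitors was -0.47 after quantile normalization and -0.41 after the loess. The shares of kept genes 2-fold apart that were higher in ventral tissue were 65.9% as deposited, 59.2% after quantile normalization, 74.3% after median centring and 68.6% after the loess. Signal over background limits most members: 4 of 10 could show no difference, and 4 more only a bound.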

Other observations

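Genes of microRNAs made in muscle were read after the other values were seen. Of 8 measured, 7 were at background on both arrays, as were 71.2% of all genes. Among the 7 were Mir206, at 1.79 in ventral and 1.91 in dorsal tissue, and Mir1a-1, at 1.93 ventrally and 1.99 dorsally. The exception was Mir1a-2, at 5.49 in ventral and 6.02 in dorsal tissue, 1.44-fold lower in ventral tissue. An array feature for such a short gene can also read an overlapping transcript, which was not tested.

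Tnnt3 had the largest difference among the sarcomere genes, and its neighbours on the chromosome were looked up for that reason. Lsp1, the protein-coding gene before it in RefSeq order, was at 5.59 in ventral and 4.36 in dorsal tissue, so that they differed by 1.24. Mrpl23, the one after it, was at background on both arrays, at 2.42 ventrally and 2.71 dorsally. Of the neighbours of Met, Capza2, an actin-capping subunit, was at 7.72 in ventral and 5.55 in dorsal tissue, so that they differed by 2.16, while Cav1, on the other side, was at background on both arrays, at 2.94 ventrally and 2.93 dorsally. Speg, next to Des, was at 3.49 on both arrays, at background.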
